A study of Mus musculus with 8 samples.

Results

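Of the 9698 merged peaks of open chromatin in wild-type (WT) bone marrow-derived macrophages (BMDMs), 898 belonged to the peak set of resting cells. They were absent from the set of cells stimulated through TLR4 and present in the set of cells that received an HDAC3 inhibitor with the stimulus. These peaks were selected on set membership alone. A peak entered the set of a condition when it ranked reproducibly in both libraries by the irreproducible discovery rate (IDR), and the 898 peaks were in the vehicle (Veh) set of 4743 and in the RGFP966 + KLA set of 7869 but not in the KLA set of 5092. The sets were called on the same 6 WT libraries whose tags are described here, so the WT levels describe the selection and carry no test.

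Accessibility was measured by ATAC-seq, in which the transposase Tn5 cuts and tags open DNA, in BMDMs from C57BL/6 mice. The WT cells received Veh, KLA (Kdo2 lipid A, a TLR4 agonist) for 6 h, or the HDAC3 inhibitor RGFP966 from the start of serum starvation and then KLA for 6 h, with 2 libraries each. The titles of the third pair name RGFP966, whereas their treatment label names KLA only. No library came from cells given RGFP966 without KLA, so an effect of the inhibitor alone cannot be told apart. A separate pair of Veh libraries came from NCoR1 flox/flox (NCoR f/f) BMDMs, the Cre-negative control line of a myeloid NCoR knockout, and their own peak table also lists which peaks were in a KLA set. It is not stated if paired libraries derive from different mice or wells, so the spread between them may be technical. Tags in peaks were 128949 and 121106 in WT Veh, 187022 and 116733 with KLA, and 202523 and 194208 with RGFP966 + KLA. They were 1.40% to 2.06% of all tags in these libraries. The NCoR f/f libraries had 372367 and 509741. RGFP966 + KLA thus had the deepest WT libraries and the largest WT set, and the part of depth in set membership was not tested. Levels below are tags per 100000 tags in peaks. Cd68 was the only 1 of 10 macrophage markers with a promoter peak in the WT table, against 6 of 10 in the NCoR f/f table, and no marker of T cells, B cells, neutrophils, fibroblasts or epithelial cells had one in either table.

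TLR4 signalling in macrophages activates NFkB, AP-1 and interferon regulatory factors, which open inflammatory enhancers, and it also dampens many genes of the resting, M-CSF-driven program. HDAC3 is the histone deacetylase of the NCoR corepressor complexes, and RGFP966 is widely used as a selective inhibitor of it. Open chromatin at resting macrophage enhancers is set largely by PU.1 with partners such as C/EBP, AP-1 and RUNX factors, whereas promoters rich in CpG are bound by factors such as SP/KLF, NFY, ETS and NRF1.

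The sequences below, from GRCm38.p6, which shares its chromosome coordinates with the mm10 build of the peaks, are plus-strand centers of 6 of the 898 peaks. The Ank2 and Adam22 peaks had the lowest KLA-to-Veh ratios and the Srp9 and Cd47 peaks were among those with the highest ratios of RGFP966 + KLA to KLA, among peaks with a mean of at least 20 tags in Veh and RGFP966 + KLA and with both KLA libraries lowest. The Bhlhe40 and 1810026B05Rik peaks, added after their values were seen, were the only 2 called in both steps. Capitals mark matches, on either strand, to any of 16 consensus motifs. Bases in mRNA exons were left out, which shortened the Srp9 stretch and removed that of Yipf6.
Srp9, promoter (chr1:182124619-182124736): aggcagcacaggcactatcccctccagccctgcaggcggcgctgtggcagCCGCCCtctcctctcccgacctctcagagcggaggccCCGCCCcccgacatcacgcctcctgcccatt
Bhlhe40, promoter (chr6:108659860-108660059): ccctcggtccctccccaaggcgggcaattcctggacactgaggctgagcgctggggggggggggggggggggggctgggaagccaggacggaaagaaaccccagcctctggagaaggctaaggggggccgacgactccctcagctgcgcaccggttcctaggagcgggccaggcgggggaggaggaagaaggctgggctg
Ank2, intron (chr3:127355317-127355516): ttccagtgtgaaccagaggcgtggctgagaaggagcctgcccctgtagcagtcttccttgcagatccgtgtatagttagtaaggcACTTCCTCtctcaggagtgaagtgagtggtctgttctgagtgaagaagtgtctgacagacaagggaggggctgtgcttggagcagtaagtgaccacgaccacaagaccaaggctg
Adam22, intron (chr5:8357342-8357541): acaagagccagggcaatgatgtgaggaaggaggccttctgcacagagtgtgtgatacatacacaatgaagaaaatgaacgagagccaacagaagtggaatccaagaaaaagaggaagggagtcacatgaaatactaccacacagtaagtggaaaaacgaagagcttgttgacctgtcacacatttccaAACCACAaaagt
Cd47, intergenic (chr16:49840134-49840333): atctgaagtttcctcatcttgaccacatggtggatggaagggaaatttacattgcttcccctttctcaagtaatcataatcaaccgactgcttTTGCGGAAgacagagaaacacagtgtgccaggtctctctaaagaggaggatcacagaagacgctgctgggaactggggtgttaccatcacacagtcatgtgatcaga
1810026B05Rik, intergenic (chr7:73595259-73595458): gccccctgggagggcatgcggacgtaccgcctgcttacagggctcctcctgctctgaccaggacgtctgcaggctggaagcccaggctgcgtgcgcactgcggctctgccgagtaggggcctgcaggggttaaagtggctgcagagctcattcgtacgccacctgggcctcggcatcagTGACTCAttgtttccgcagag
The capitals are GGGCGG (SP/KLF, read as CCGCCC) at Srp9, GAGGAAGT (PU.1, read in reverse) at Ank2, AACCACA (RUNX) at Adam22, TTGCNNAA (C/EBP) at Cd47 and TGACTCA (AP-1) at 1810026B05Rik. The Bhlhe40 stretch held none of the 16 and was 71.0% G or C.

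The 898 peaks were of middling strength in resting cells. Their median level was 10.9 and 10.7 in Veh, 8.02 and 6.85 with KLA, and 8.89 and 9.27 with RGFP966 + KLA. The 2753 peaks held in all 3 sets were higher, with medians of 15.5 and 14.9 in Veh, 14.4 and 14.6 with KLA, and 13.3 and 13.4 with RGFP966 + KLA. Both KLA medians of the 898 peaks were therefore below the other 4, and the RGFP966 + KLA medians lay between KLA and Veh rather than at the Veh level. In tags, the median member held 14 and 13 in Veh, 15 and 8 with KLA and 18 and 18 with RGFP966 + KLA. No member was empty with KLA: the lowest held 2 tags in the first KLA library and 1 in the second, and 47 members had 3 tags or fewer in the second. All members thus kept some tags with KLA. As these are bulk libraries, fewer cells with an open site and less opening per cell cannot be told apart.

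**Figure D1:**
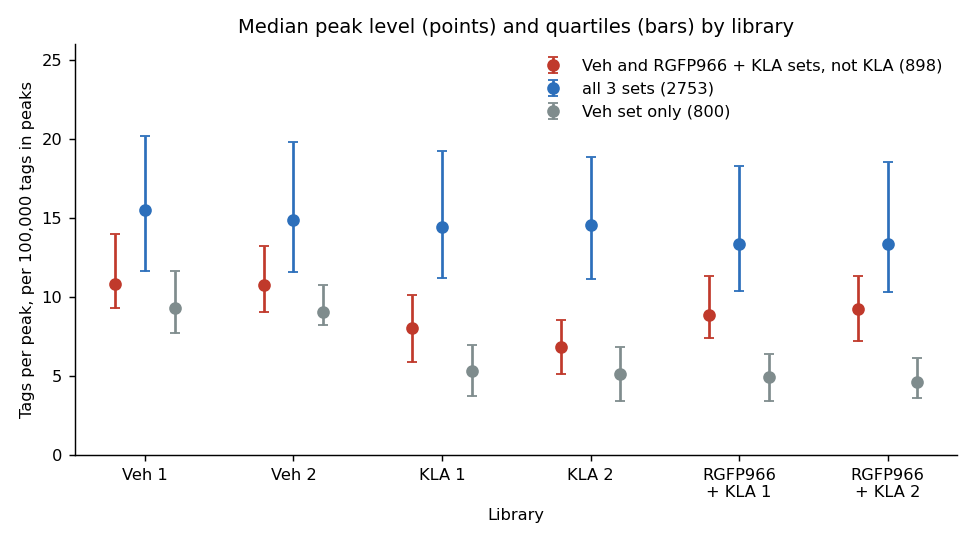
Median level of the peaks (points) with quartiles (bars) in each WT library, in tags per 100000 tags in peaks, for the 898 peaks in the Veh and RGFP966 + KLA sets only, the 2753 peaks in all 3 sets and the 800 peaks in the Veh set only. The 898 peaks (red) dip in both KLA libraries and lie in between with RGFP966 + KLA, whereas the peaks of the Veh set only are low there too. The sets were called on these libraries, so both patterns describe the selection.

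The peaks held by the Veh set alone differ from the selected peaks by the rule, as the RGFP966 + KLA set lacked them. Their lower RGFP966 + KLA levels therefore describe the selection. Those 800 peaks had medians of 9.31 and 9.08 in Veh, 5.35 and 5.14 with KLA and 4.94 and 4.63 with RGFP966 + KLA. They were near the 898 peaks at rest, lower with KLA, and no higher with RGFP966. By the mean of each condition, KLA was the lowest of the 3 in 682 of the 898 peaks (75.9%), against 30.6% of all merged peaks. In 539 members the order was KLA, then RGFP966 + KLA, then Veh, and in 143 the RGFP966 + KLA mean was at or above Veh with KLA below it. In 41 members KLA was the highest of the 3 means.

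Both KLA libraries lay below all 4 other WT libraries in 288 members (32.1%), a pattern that 8.74% of all merged peaks showed. In 297 more, only the second KLA library was below the other 4, in 158 only the first was, and in 155 neither was. The 2 KLA libraries thus differed at many of these peaks. Over the 887 members with at least 10 tags in the pair, the chi-square for a difference between the KLA libraries was 1.62 per degree of freedom, where counting error alone gives about 1. The same value was 0.741 for the Veh pair and 0.849 for the RGFP966 + KLA pair at the members. Over all merged peaks it was 1.09 for KLA, 1.09 for Veh and 0.944 for RGFP966 + KLA. The Veh and RGFP966 + KLA pairs thus lay closer together at the members than over all peaks, and the KLA pair farther apart. Such a split was not particular to the members. At peaks of the Veh and KLA sets only, the RGFP966 + KLA pair had 2.00, against 0.794 for Veh and 0.712 for KLA. At peaks of the KLA and RGFP966 + KLA sets only, the Veh pair had 1.40. The sets were called on the agreement of these same libraries, so the values describe the choice of peaks and were not tested.

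**Figure D2:**
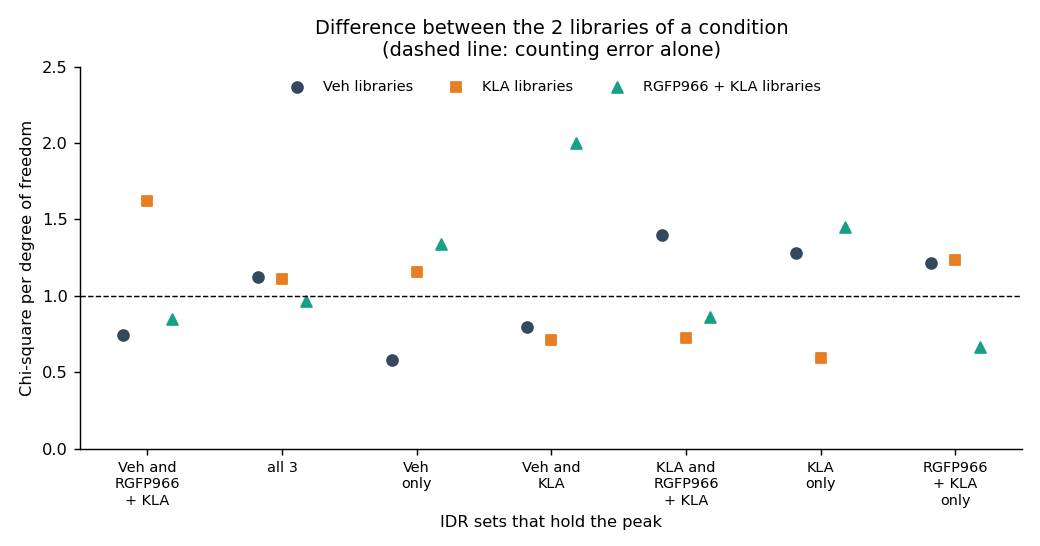
Chi-square per degree of freedom for the difference between the 2 libraries of a condition (vertical axis), by the IDR sets that hold the peak (horizontal axis), over peaks with at least 10 tags in the pair. At the 898 peaks (leftmost) the KLA libraries reach 1.62, and the Veh and RGFP966 + KLA libraries stay below 1, the level of counting error (dashed line).

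With the edgeR quasi-likelihood test over all 9698 peaks, a peak was called at an adjusted p under 0.05 and more than 2-fold. From Veh to KLA, 56 members were called lost, where 1.73% of all peaks were. From KLA to RGFP966 + KLA, 2 members were called gained, where 0.237% of all peaks were. Set against Veh directly, RGFP966 + KLA had 15 members called lost, where 2.99% of all peaks were, and 0 called gained, where 6.89% were, with 4 higher at an unadjusted p under 0.05. Because the sets chose the members on these contrasts, nothing is read from these counts. DESeq2 made 0 of these calls, among members or among all peaks, and at an unadjusted p under 0.05 it had 74 members lower with KLA, 17 higher on adding RGFP966, and 14 lower and 0 higher in RGFP966 + KLA against Veh.

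The median log2 fold change of the 898 peaks was −0.56 from Veh to KLA, 0.27 from KLA to RGFP966 + KLA and −0.28 from Veh to RGFP966 + KLA. Over all peaks these medians were 0.02, 0.03 and 0.04. Library by library, the members' median ranged from −0.71 to −0.47 for KLA against Veh and from 0.21 to 0.45 for RGFP966 + KLA against KLA. Without the first KLA library the medians were −0.77 and 0.45. At the median member RGFP966 + KLA was thus about 1.21-fold above KLA, and KLA was 1.48-fold below Veh.

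Among members with a mean of at least 20 tags in Veh and RGFP966 + KLA and both KLA libraries lowest, 8 were taken for their low KLA-to-Veh ratios. Of these 8, Jun, the AP-1 subunit gene, carried the strongest resting signal. Its promoter peak (chr4:95052226-95052604, centered 193 bp upstream of the start site, where an antisense transcript, which ATAC-seq cannot tell apart, also begins) had levels of 36.4 and 21.5 in Veh, 6.42 and 9.42 with KLA, and 15.3 and 11.3 with RGFP966 + KLA. The log2 fold change was −1.93 ± 0.34 (SE, n = 2 libraries per condition) with KLA and 0.81 ± 0.37 on adding RGFP966. Here and below, the SE comes from the edgeR fit, which shares its estimate of spread over peaks. It does not measure the spread of the libraries at a single peak alone. All 4 other libraries were above both KLA libraries, and neither RGFP966 + KLA library reached the Veh range. A second Jun member far upstream of the gene had levels of 20.9 and 12.4 in Veh, 10.2 and 7.71 with KLA and 11.9 and 14.9 with RGFP966 + KLA, so both KLA libraries were again lowest but by less. The peak at the start of Junb, another AP-1 gene, had a log2 fold change of −0.34 ± 0.45 with KLA.

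Distal peaks made up most of the others. An intronic peak of Ank2, which encodes a membrane adaptor of the ankyrin family, had levels of 22.5 and 22.3 in Veh, 5.88 and 3.43 with KLA and 15.8 and 11.3 with RGFP966 + KLA. An intronic peak of Adam22, a member of the ADAM family without protease activity, stood at 17.1 and 21.5, then 3.21 and 6.00, then 7.90 and 8.24. With RGFP966 + KLA the first lay closer to its Veh level than the second did. An intergenic peak 34.1 kb from Insig1, whose product retains the SREBP complex in the endoplasmic reticulum, had 17.8 and 21.5 in Veh, 4.81 and 7.71 with KLA and 7.90 and 9.78 with RGFP966 + KLA. An intergenic peak whose nearest start site was that of Pwwp2b had 17.8 and 19.8, then 3.21 and 7.71, then 10.9 and 9.78. At both, every RGFP966 + KLA value was above every KLA value and below every Veh value. A peak upstream of Serpini2 had 26 and 20 tags in Veh, 14 and 5 with KLA and 23 and 31 with RGFP966 + KLA, again with the KLA libraries lowest.

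At other peaks the RGFP966 + KLA libraries were near the resting level. At the peak 15.4 kb upstream of Cd47, the gene of the "don't eat me" signal read by SIRPα on phagocytes, levels were 14.0 and 14.9 in Veh, 5.88 and 3.43 with KLA and 13.3 and 14.4 with RGFP966 + KLA. The log2 fold change was −1.53 ± 0.41 with KLA, 1.48 ± 0.38 on adding RGFP966, and −0.05 from Veh to RGFP966 + KLA. The promoter peak of Smpd1, the lysosomal acid sphingomyelinase, stood at 10.1 and 17.3, then 6.42 and 5.14, then 14.8 and 12.9. An intergenic peak near Arhgap5 had 11.6 and 13.2, then 5.88 and 5.14, then 11.4 and 14.9. In all 3 the RGFP966 + KLA libraries lay within or next to the Veh range. The Yipf6 promoter peak (5.35 and 5.14 with KLA) and an intronic peak of 6430531B16Rik (9.09 and 1.71 with KLA) were similar, the first with both RGFP966 + KLA values just under the Veh range and the second with KLA libraries far apart. At Casp6, the executioner caspase gene, and Srp9, a subunit of the signal recognition particle, the higher RGFP966 + KLA library (24.7 and 20.7) was above every Veh library. The lower one was level with the higher Veh library at Casp6 (10.863 against 10.857) and within the Veh range at Srp9.

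**Figure D3:**
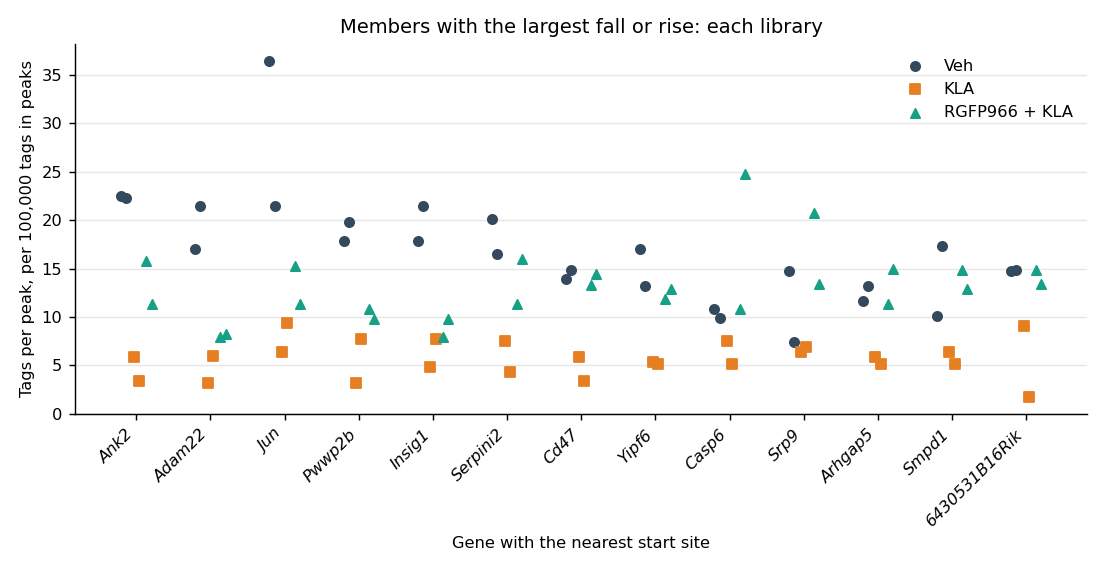
Level of 13 members in each WT library, in tags per 100000 tags in peaks, named by the gene with the nearest start site: the 8 with the lowest ratio of KLA to Veh and the 8 with the highest ratio of RGFP966 + KLA to KLA (3 are in both groups), among members with a mean of at least 20 tags in the Veh and RGFP966 + KLA libraries; Bhlhe40 and 1810026B05Rik had fewer. At each, both KLA libraries (squares) lie below all 4 Veh (circles) and RGFP966 + KLA (triangles) libraries, as required for naming; the triangles reach the circles at Cd47, Arhgap5 and Smpd1 but not at Jun or Adam22.

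The only 2 members called in both steps were picked out after their values were seen. The Bhlhe40 peak (chr6:108659719-108660201, 669 bp upstream of the start site) had levels of 14.0 and 14.9 in Veh, 2.14 and 1.71 with KLA and 8.89 and 10.8 with RGFP966 + KLA. Both RGFP966 + KLA values were thus below both Veh values, with a log2 fold change of −0.55 between these conditions. Bhlhe40 encodes a basic helix-loop-helix repressor active in macrophages. The log2 fold changes of the first peak were −2.82 ± 0.50 with KLA and 2.27 ± 0.51 on adding RGFP966. A second Bhlhe40 member, 147 bp upstream of the start site, had 24 and 10, then 10 and 11, then 17 and 15 tags before scaling, and its KLA values overlapped Veh. The peak near the noncoding gene 1810026B05Rik (chr7:73595225-73595494, 37.0 kb upstream) had levels of 16.3 and 8.26, then 2.67 and 0.857, then 11.4 and 8.75.

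Some members kept their level with KLA in spite of being absent from its set. The strongest member, in Sfi1, had levels of 83.8 and 122 in Veh, 106 and 107 with KLA and 89.4 and 99.4 with RGFP966 + KLA. A 935 bp peak at Crlf2 was higher in both KLA libraries (62.0 and 69.4) than in either Veh library (44.2 and 34.7). The promoter peak of the zinc finger gene Zfp78 had 36.4 and 38.8, then 41.7 and 41.1, then 31.6 and 37.1. Of the 5 members of highest mean level, the other 2 were on an unplaced scaffold. Members on scaffolds or at Sfi1, Crlf2, Zfp78, Pisd-ps3 and Rn45s may lie in repeated or multicopy sequence, where the assignment of reads is uncertain. Copy number was not measured here. The peak at the start of Gar1, a small nucleolar ribonucleoprotein gene, also showed no dip (14.0 and 12.4, then 18.2 and 12.0, then 12.3 and 8.24). In all, the KLA mean was at or above the Veh mean in 61 members.

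The NCoR f/f BMDMs gave a measure the selection did not use. Of the 898 peaks, 855 (95.2%, 95% Wilson interval 93.6 to 96.4%) shared at least 1 bp with a peak of the Veh set in those cells. The whole WT Veh set had a share of 93.9% (93.2 to 94.5%) and all merged peaks 78.3%, so the members were near the other resting peaks. In the 2 NCoR f/f Veh libraries the matching peaks held a median of 21 and 30 tags, against 19 and 27 for all WT peaks with a match, 21 and 30 for peaks of the Veh and KLA sets and 29 and 41 for peaks of all 3 WT sets. The members thus had tags at rest in a second pair of libraries too, at a level close to that of all matched WT peaks. The peaks of the Veh set alone overlapped it less often, at 83.0% (80.2 to 85.4%), with 17 and 23 tags.

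In the KLA set of NCoR f/f BMDMs, 834 of the 898 peaks (92.9%, interval 91.0 to 94.4%) had an overlapping peak. This was close to the share of the whole WT Veh set, 92.8% (92.0 to 93.5%), and 8435 of the 9698 merged peaks had one. The share was 97.6% (96.9 to 98.1%) for peaks of all 3 WT sets, 95.2% (92.1 to 97.1%) for those of the WT Veh and KLA sets, and 75.2% (72.1 to 78.1%) for those of the WT Veh set alone. The NCoR f/f KLA set was larger, with 18667 peaks against 5092, and came from libraries whose tags were not analysed here. The intervals cover counting error only. When overlap was set at 50% of both peaks, the shares of the members were 90.0% for the Veh set and 87.5% for the KLA set.

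**Figure D4:**
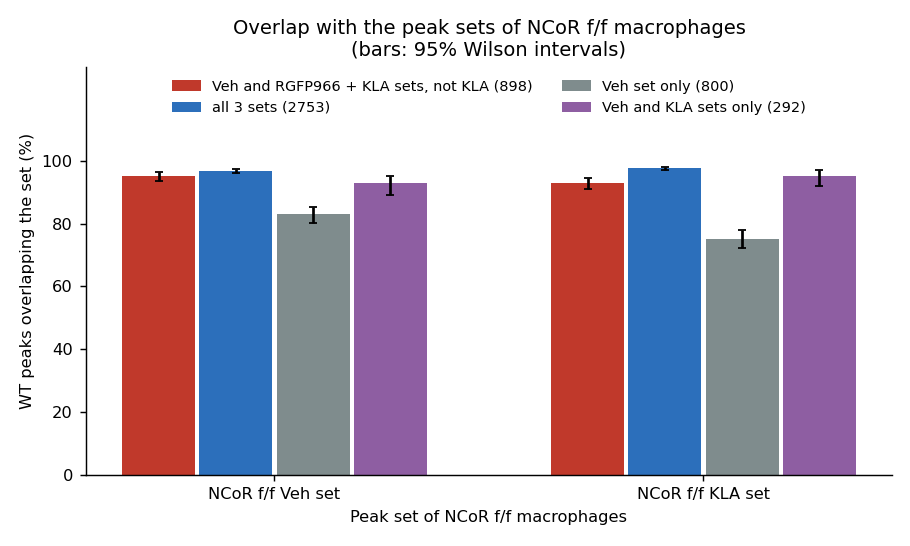
Share of WT peaks (vertical axis, %) that overlapped a peak of the Veh set (left) or the KLA set (right) of NCoR f/f BMDMs, by the WT sets that hold them, with 95% Wilson intervals. The 898 peaks (red) reach 92.9% in the NCoR f/f KLA set although the WT KLA set lacks them, and the peaks of the WT Veh set only (grey) reach 75.2%.

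Split by the 2 NCoR f/f sets, 797 members were in both, 58 in the Veh set only, 37 in the KLA set only and 6 in neither. The 58 were 6.78% (5.28 to 8.67%) of the members in the NCoR f/f Veh set, near the 5.82% (5.17 to 6.54%) of the whole WT Veh set, which includes them. By class, that share was 2.10% (1.62 to 2.72%) for peaks of all 3 WT sets and 3.69% (2.02 to 6.66%) for those of the WT Veh and KLA sets. It was 20.3% (17.4 to 23.6%) for those of the WT Veh set alone. The 58 members absent with KLA in both tables were mostly distal (39 against 16 promoter peaks), and they had median levels of 10.9 and 11.6 in WT Veh, 5.88 and 5.14 with KLA and 7.41 and 7.21 with RGFP966 + KLA. For the 797 in both sets the medians were 10.9 and 10.7, then 8.02 and 6.85, then 9.38 and 9.27. The median log2 fold change with KLA was −0.74 in the 58 and −0.55 in the 797. Among the 288 members with both KLA libraries lowest, 259 (89.9%, 85.9 to 92.9%) were in the NCoR f/f KLA set, against 428 of the 455 (94.1%, 91.5 to 95.9%) with 1 KLA library below the rest. These intervals overlap.

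The 10 members called lost and absent from both KLA sets were nearest to Ano6, 2810414N06Rik, A830052D11Rik, Mef2c, Mir7656, Insig1, Dnajc13, Cttnbp2nl, Rassf2 and Cd47. They were singled out after their values were seen. Mef2c, a MADS-box factor of the myeloid lineage, had a peak in an intron 1476 bp from a start site. Its levels were 10.9 and 15.7 in Veh, 4.28 and 2.57 with KLA and 7.41 and 6.69 with RGFP966 + KLA. The same peak held 15 and 29 tags in the NCoR f/f Veh libraries. The Insig1 peak had 19 and 21 tags there and the Cd47 peak 26 and 26. The strongest of the 58 in the NCoR f/f Veh libraries were again Sfi1 (358 and 390 tags) and Crlf2 (68 and 109), followed by a scaffold peak, and others included those near Mir30d (46 and 50) and P4hb (27 and 53). Sfi1 and Crlf2 showed no lower level with KLA in WT cells, although both KLA sets lacked them.

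By position, 507 of the 891 members with an assigned gene lay within 2 kb of a start site (56.9%, interval 53.6 to 60.1%). The share was 70.3% (68.6 to 72.0%) for peaks of all 3 sets, 47.4% (43.9 to 50.8%) for those of the Veh set alone and 51.0% for all merged peaks. The annotation placed 453 members in promoters, 205 between genes, 191 in introns, 12 in 5′ UTRs, 10 at transcript ends, 8 in exons and 7 in 3′ UTRs. The median width was 286 bp, against 308 bp for peaks of all 3 sets. The median log2 fold change with KLA was −0.63 at the 384 distal and −0.54 at the 507 promoter members, and 0.30 and 0.26 on adding RGFP966. Distal members had both KLA libraries lowest in 37.0% of cases and promoter members in 28.6%.

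The 898 peaks were spread over 849 genes, of which 810 had a single member, 37 had 2 and 2 had more. The 2 genes with more were Pisd-ps3 (4 of 97 merged peaks) and Sfi1 (3 of 21), both possibly in repeated sequence. Of the 849 genes, 482 had no other merged peak, and 126 also had a peak in all 3 sets. Genes with a pair of members included Jun, Bhlhe40, Cxcr4, Mef2a, Irf2bp2, Btg2, Cd93, Pik3r1, Ctsd and Havcr2. The members near Cxcr4, the CXCL12 receptor gene, both lay over 100 kb upstream. The nearer had levels of 14.0 and 11.6 in Veh, 4.81 and 2.57 with KLA and 8.89 and 6.69 with RGFP966 + KLA, with the KLA levels lowest. The farther had 15 and 16, then 7 and 9, then 11 and 20 tags before scaling.

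Members were 9.26% of all merged peaks and 18.9% of the Veh set, and the gene lists are set beside the second share. Many lists held few Veh-set peaks, some with a pair at a single gene, and no difference from that share was tested. Among lists of the macrophage program, adhesion, migration and M-CSF response genes had 6 members among 19 Veh-set peaks (31.6%): Itgb1, Vcl, and pairs at Cxcr4 and Pik3r1. The AP-1 genes had 3 of 8 (37.5%), from Jun and Junb. Lineage factors had 5 of 27 (18.5%), at Mef2a, Mef2c, Mef2d and Fli1, and 1 of them, Mef2c, was called lost. Lysosome and phagocytosis genes had 4 of 20 (20.0%). Their peak inside Hexa, the hexosaminidase A subunit gene, had levels of 19.4 and 16.5 in Veh, 4.81 and 8.57 with KLA and 5.93 and 5.66 with RGFP966 + KLA. It was lower than Veh in both other conditions. The promoter of Ctsd, the cathepsin D gene, had 19.4 and 14.9, then 6.42 and 11.1, then 9.88 and 8.75.

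Lists of the TLR4 response lay on both sides of the 18.9% share. No member was assigned to any of 34 cytokine and chemokine genes, which had 19 merged peaks, 6 of them in the Veh set. The NFkB list had 1 of 6 Veh-set peaks, 4.82 kb from Tnip3, and the TLR4 pathway had 1 of 9, 4.48 kb from Tbk1, the kinase that phosphorylates IRF3. The Tbk1 peak had levels of 15.5 and 8.26 in Veh, 6.42 and 6.00 with KLA and 10.9 and 12.4 with RGFP966 + KLA, with both KLA values lowest. Interferon and STAT genes had 4 of 14 (28.6%), near Stat5a, Irf7, Socs1 and Ifnar2, and LXR and SREBP genes 2 of 15, at Insig1 and Insig2. The Insig2 promoter had 20.2 and 14.9, then 12.3 and 12.0, then 11.4 and 15.4.

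Most members in the cell cycle and housekeeping lists were at start sites. Cell cycle genes had 6 of 16 Veh-set peaks (37.5%), and their median log2 fold change with KLA was −0.28. The Mcm4 promoter had levels of 13.2 and 13.2 in Veh, 17.1 and 8.57 with KLA and 16.3 and 18.5 with RGFP966 + KLA, with the KLA pair on both sides of Veh. Ribosomal protein genes had 5 of 21 (23.8%), mitoribosome genes 3 of 12 (25.0%), proteasome genes 2 of 8 (25.0%) and respiration genes 5 of 23 (21.7%). Zinc finger genes had 15 of 68 (22.1%) and solute carriers 14 of 73 (19.2%). Of the members in these 7 lists, 1 was called lost, at the zinc finger gene Zfp36l2, which encodes an mRNA-decay factor.

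Base composition is given over the central 200 bp. The central 200 bp of the members had a median of 59.0% G or C and 11 CpG pairs, between the peaks of all 3 sets (62.5% and 15) and those of the Veh set alone (56.0% and 6). Promoter members had 66.5%, against 65.5% over all promoter peaks, and distal members had 51.0%, against 49.5% over all distal peaks. In promoter members, GGGCGG (SP/KLF) was found in 69.0%, the NFY motif, CCAAT followed by CA, CG, GA or GG, in 32.0%, and CCGGAAGT (ETS) in 6.31%. Over all promoter peaks these were 68.1%, 31.9% and 6.89%, and over those of the Veh set 72.1%, 36.6% and 6.69%. The members' interval for NFY, 28.0 to 36.1%, lay below the Veh-set share. It did so over whole peaks too (30.5 to 38.8% against 41.0%), but not in 100 bp (19.8 to 27.1% against 25.5%). The NRF1 consensus was in 14.4% (11.6 to 17.7%) of promoter members, against 11.3% of all promoter peaks and 10.9% of those in the Veh set.

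The motifs of resting macrophage enhancers were counted in the distal members. AP-1 (TGACTCA or TGAGTCA) was in 25.9% (21.7 to 30.5%) of the 379 distal members with sequence, against 28.4% of all distal peaks and 23.5% of those in the Veh set. With all distal peaks and then those of the Veh set for comparison, C/EBP (TTGCNNAA) was in 15.3% against 16.3% and 15.5%, and PU.1 (GAGGAAGT) in 14.0% against 12.1% and 12.9%. RUNX (AACCACA) was in 14.0% (10.9 to 17.8%) against 10.6% and 11.9%, and STAT (TTCNNNGAA) in 6.60% against 6.50% and 5.41%. For these 5 motifs the Veh-set share lay within the members' interval. The NFkB-p65 consensus was in 3.17% (1.82 to 5.45%), against 6.13% of all distal peaks but 3.34% of those in the Veh set. The E-box CACGTG, read by MITF, TFE and USF factors, was in 30 of the 379 (7.92%, 5.60 to 11.1%), against 4.33% of all distal peaks and 4.62% of those in the Veh set. Among promoter members the E-box share was 8.68%, against 8.03% of all promoter peaks. With 16 motifs counted, no test was made, and a match is not a bound site.

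**Figure D5:**
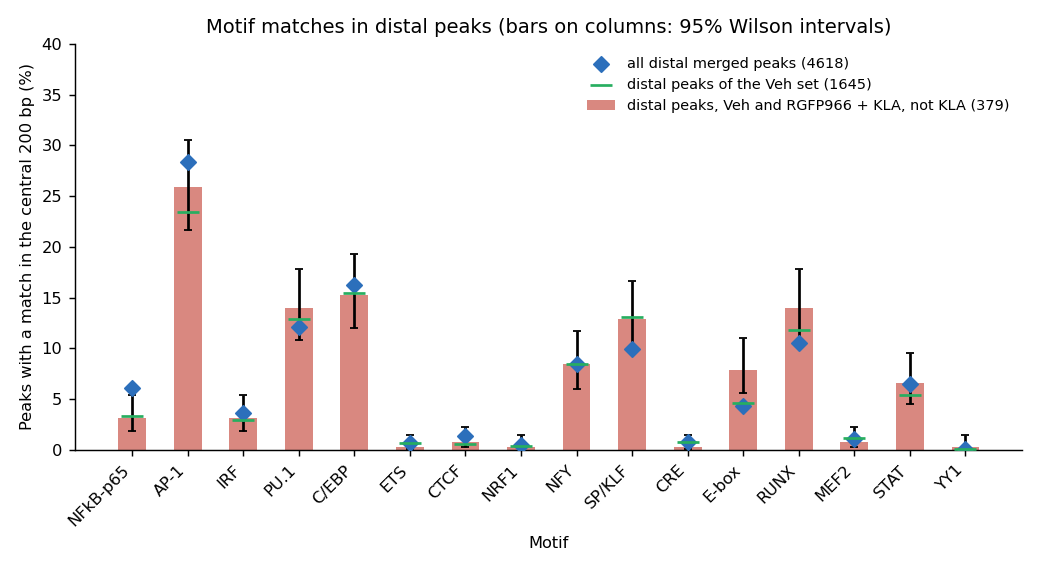
Share of distal peaks with a motif match in the central 200 bp (vertical axis, %), for the 379 distal members with sequence (columns, with 95% Wilson intervals), all 4618 distal merged peaks (diamonds) and the 1645 distal peaks of the Veh set (dashes). NFkB-p65 lies below all distal peaks and level with the Veh set, and the E-box lies above both.

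The score carried by each merged peak, on the IDR scale from 540 upward, had a median of 818 in members, 968 in peaks of all 3 sets and 681 in peaks of the Veh set alone. The 50 members of lowest score (551 to 611) had median tags of 12 and 11 in Veh, 13 and 6 with KLA and 14 and 13 with RGFP966 + KLA. The 50 peaks of all 3 sets with the lowest scores (565 to 675) had 13 and 12, then 17.5 and 10, then 16 and 15. In levels, the KLA medians were 6.95 and 5.14 in the first group and 9.36 and 8.57 in the second. The score is 1 value per merged peak, so a low score does not place a peak at the limit of the KLA set.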

How the data were processed

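The deposited tables hold raw tag counts and a peak score for merged ATAC-seq peaks, made by the authors from reads aligned to mm10 with Bowtie2, HOMER peak calls, the IDR on 2 libraries per condition and HOMER annotation. Counts are not normalized and allow at most 3 tags per position. No Tn5 shift is stated, and tool versions are not given in the sources used here. How the deposited score was combined over merged peaks is not stated, and the set names of the second table were read as NCoR f/f and NCoR knockout. The columns of that table used here are the Veh counts and the set names.

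Here the counts of all 6 WT libraries were fitted with edgeR 4.0.16 (R 4.3.3) by the quasi-likelihood test, scaled to tags in peaks, over all 9698 peaks, with Benjamini-Hochberg adjustment. A peak was called at an adjusted p under 0.05 and over 2-fold. DESeq2 1.42.0, other scalings and filters, a replicate block and leaving out each library were alternatives. Overlaps with the NCoR f/f table needed 1 bp (bedtools 2.31.1). Motifs were matched on GRCm38.p6 in the central 200 bp of peaks on both strands. The fit was tested on simulated data. Promoter peaks lay within 2 kb of a start site.

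Named peaks were the 8 with the lowest ratio of KLA to Veh and the 8 with the highest ratio of RGFP966 + KLA to KLA, both among members with a mean of at least 20 tags over the Veh and RGFP966 + KLA libraries and both KLA libraries lowest, the 5 of highest level, the 5 highest with KLA, those of each gene list, and the strongest in the NCoR f/f libraries. The members and lists were chosen with earlier results of these data known. Some gene lists, genes and sequences are not reported here.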

Additional observations from a re-analysis of the deposited data

How the results depend on the processing

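The number of members called lost with KLA, 56, was 29 with scaling to all tags, 0 with DESeq2 and 13 to 49 when a library was left out (13 without Veh 1, 28 without Veh 2, 21 without KLA 1 and 33 without KLA 2). The number gained from KLA to RGFP966 + KLA, 2, was 8 with loess scaling, 5 with a filter of 16 tags, 8 with the replicate block, 8 when only the 4 libraries compared were fitted, 0 with DESeq2 and 0 to 7 when a library was left out (0 without either KLA or either RGFP966 + KLA library). The number lost from Veh to RGFP966 + KLA, 15, was 3 with all tags, 0 with DESeq2 and 4 to 15 when a library was left out (6 without Veh 1, 7 without RGFP966 + KLA 1 and 4 without RGFP966 + KLA 2), and the number gained, 0, was 0 to 1.

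The median log2 fold change with KLA, −0.56, ranged from −0.77 to −0.52 when a library was left out. That from KLA to RGFP966 + KLA, 0.27, was 0.45 with all tags, where the median of all peaks was 0.21, and 0.24 to 0.45 when a library was left out. That from Veh to RGFP966 + KLA, −0.28, was −0.34 with TMM, −0.18 with all tags, where the median of all peaks was 0.14, −0.26 with loess, −0.25 with a prior count of 2, −0.34 with DESeq2, −0.21 in members with at least 16 tags and −0.30 to −0.25 when a library was left out. The overlap with the NCoR f/f Veh set was 90.0% at 50% overlap, that with the KLA set 87.5% at 50% overlap and 94.7% at 16 tags, and the share near start sites 64.5% at 16 tags. No direction of these results reversed. The selection used the same WT libraries, so steady WT directions are no support for them. Motif shares depended on the window and on the peaks counted. Of 48 alternative values, 33 moved, where the alternatives were whole peaks, 100 bp and distal members only. Against all distal peaks, C/EBP in distal members was 15.3% against 16.3% in 200 bp and 20.1% against 19.5% over whole peaks, and STAT was 2.90% against 3.14% in 100 bp. Against all promoter peaks, ETS was 9.07% against 8.87% over whole peaks and 4.34% against 3.65% in 100 bp, SP/KLF 47.3% against 48.4% in 100 bp, and NFY 34.5% against 35.3% over whole peaks, each opposite in direction to 200 bp.

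Replicate numbers were only shared: the replicate differences correlated at 0.0757, 0.0335 and 0.0353 over 3402 peaks. With the replicate block, 70 members were called lost with KLA and 16 lost from Veh to RGFP966 + KLA. Depth limits single peaks, since the median member held 8 tags in the shallower KLA library.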

Other observations

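The table of NCoR f/f BMDMs also lists the peak sets of NCoR knockout BMDMs, whose tags were not analysed here. Of the 898 peaks, 72.5% overlapped the knockout Veh set and 88.6% the knockout KLA set, against 77.9% and 89.0% of the whole WT Veh set and 56.5% and 80.6% of all merged peaks. Of the 58 members in the NCoR f/f Veh set but not in its KLA set, 41 (70.7%) overlapped the knockout KLA set. For peaks of the WT Veh set alone that met the same condition the count was 55 of 135 (40.7%), for peaks of all 3 WT sets 50 of 56 (89.3%) and for all WT peaks 302 of 555 (54.4%).

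Members within 2 kb of a start site overlapped the NCoR f/f KLA set in 96.4% of cases (94.5 to 97.7%) and distal members in 88.8% (85.3 to 91.6%), against 98.2% and 96.7% for promoter and distal peaks of all 3 WT sets. Among the 56 members called lost with KLA in WT cells the share was 82.1% (70.2 to 90.0%), and among the 155 with neither KLA library below the other 4 it was 94.8% (90.1 to 97.4%).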
